A study of Mus musculus with 10 samples.

Results

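The mouse Hox genes were examined in the ectoderm of forelimb buds from embryos deficient in Sp8 and Sp6, a pair of related zinc finger proteins that bind DNA. The members are the 39 rows of the deposited gene table, of 55401 in all, whose symbol is Hox followed by a cluster letter from a to d and a paralog number. They comprise 11 HoxA, 10 HoxB, 9 HoxC and 9 HoxD genes. RNA sequencing was available for 3 libraries labelled as double knockouts of Sp8 and Sp6 (DKO) and 3 libraries of wild-type (WT) littermates, all from embryos at E9.75, counted in days of gestation. The libraries are called DKO 17, DKO 40, DKO 41, WT 32, WT 53 and WT 56, after the column numbers. Each took the peeled ectoderm of about 2 forelimb buds. The labels used here give neither the alleles nor the litters, and do not say how the deletions were made. Whether the libraries of a group came from separate embryos is not stated either, and p-values then reflect the scatter among these libraries, which may be technical. The series also labels libraries from E10.5 embryos lacking Sp6 and their WT littermates, which were not analysed here.

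Hox genes encode homeodomain transcription factors that give cells a position along the head-to-tail axis. Within a cluster they are transcribed in the same direction, and paralog numbers rise from the 3′ to the 5′ end. Genes with low numbers are in general switched on earlier and nearer the head, and those with high numbers later and nearer the tail. In the limb bud, the 5′ genes of HoxA and HoxD are best known for patterning the mesenchyme under the ectoderm, while HoxC genes are known from ectodermal organs such as hair and nails. On the GRCm38 assembly HoxA lies on chromosome 6 (52155590 to 52260880), HoxB on chromosome 11 (96194316 to 96368256), HoxC on chromosome 15 (102921103 to 103036852) and HoxD on chromosome 2 (74668310 to 74765142).

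Levels are given in CPM, read counts brought to a common library total and scaled by the trimmed mean of M values (TMM), and changes as log2 fold changes, DKO minus WT, with a standard error (SE). A gene was called when its edgeR quasi-likelihood p, adjusted by the Benjamini-Hochberg method over the 19126 genes tested, was under 0.05. Library totals lay between 64432348 and 87040786 counts. Sp8 had 3.68 ± 1.90 CPM in DKO and 36.2 ± 6.22 CPM in WT (SD, n = 3 each), and its fall was called (log2 fold change -3.29, edgeR adjusted p = 0.000806). Sp6 had 133, 13.9 and 76.9 CPM in DKO 17, DKO 40 and DKO 41, against 228, 312 and 320 CPM in WT 32, WT 53 and WT 56, and was not called (edgeR adjusted p = 0.207). The labels used here do not give the deleted parts, so the reads left in DKO could not be placed relative to them. The 14 markers of surface ectoderm summed to between 2598 and 3512 CPM in the DKO libraries and between 4045 and 4413 CPM in the WT libraries. The 10 markers of limb mesenchyme summed to between 112 and 262 CPM in DKO and between 85.0 and 209 CPM in WT. Within that list Prrx2 and Twist1 lay above every WT library in each DKO library without being called, and Pdgfra was called lower. The 7 neural markers summed to between 2.76 and 4.62 CPM in DKO and between 72.7 and 118 CPM in WT, with Tubb3 and Sox2 called lower and Stmn2 called higher. Tubb3 alone made up nearly all of each WT sum, with 71.2, 87.1 and 116 CPM in WT 32, WT 53 and WT 56. It had 1.19, 1.54 and 3.92 CPM in DKO, so the difference in the sums is that of 1 gene. Stmn2 had 0, 0 and 3 counts in WT, and entered the test through its DKO libraries alone. With 1 library left out, Sox2 lost its call where that was DKO 40 or WT 56 (adjusted p at most 0.0676), and Stmn2 kept it without DKO 41 alone (otherwise at most 0.118). The 7 somite markers summed to between 14.2 and 31.95 CPM in DKO and between 63.1 and 83.3 CPM in WT, with Meox1 called lower. The 5 endothelial markers reached at most 1.36 CPM in any library. Red blood cell genes summed to between 26.9 and 909 CPM in DKO and between 0 and 297 CPM in WT. Each library is a bulk of tissue, so fewer cells of a kind and less RNA per cell cannot be told apart. The part of these other cell types in the Hox values was not tested.

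The Hox genes that rose in DKO ectoderm all had low paralog numbers, and those that fell were HoxC genes with high numbers. Of the 39 Hox genes, 32 passed the filter on low counts, and 12 of these were called, 9 higher and 3 lower in DKO. Across all genes tested, 4.51% were called, 1.7% higher and 2.81% lower. The 12 called Hox genes made up 37.5% of the 32 tested. The genes called higher were Hoxb1, Hoxb3, Hoxb5, Hoxb6, Hoxc4, Hoxc5, Hoxd1, Hoxd3 and Hoxd4, with paralog numbers from 1 to 6. Of these, Hoxd4 passed the filter through its DKO libraries alone, the group in which it was high. Those called lower were Hoxc9, Hoxc10 and Hoxc13, with paralog numbers from 9 to 13. Among the 22 tested genes with paralog numbers 1 to 8, the log2 fold change was positive in 21 and negative in 1, Hoxc8. Among the 10 tested genes with numbers 9 to 13, it was positive in 2, Hoxb9 and Hoxd9, and negative in 8. The 32 tested Hox genes had a median log2 fold change of 0.78, against 0.03 over all genes tested. In 14 of the 32 (43.8%) each DKO library lay above each WT library, where 10.6% of all genes tested were separated in this way. In 4 of the 32 (12.5%) each DKO library lay below each WT library, a share close to the 11.3% of all genes tested.

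**Figure D1:**
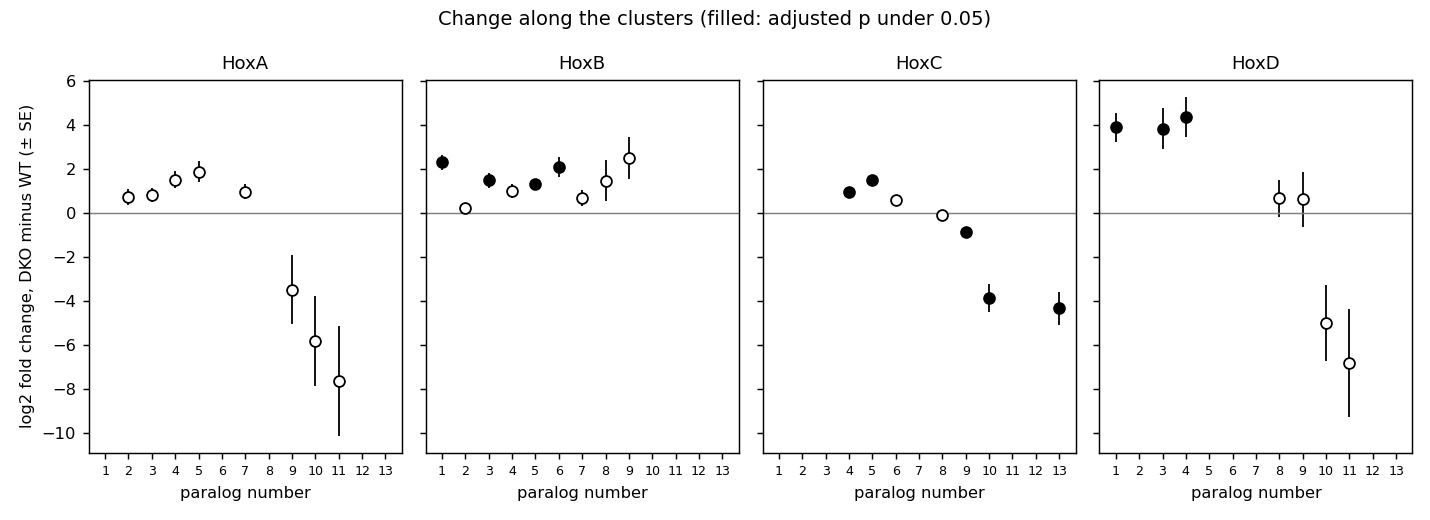
The log2 fold change (DKO minus WT) with its standard error is plotted against paralog number for 31 of the tested Hox genes, one panel per cluster. Filled points passed the edgeR threshold; in HoxC the points run from 0.98 at Hoxc4 and 1.51 at Hoxc5 down to -4.33 at Hoxc13.

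These counts depended on single libraries. With 1 library left out, between 1 and 8 Hox genes were called higher and between 1 and 3 lower, and the numbers were 1 and 1 without WT 32, 2 and 1 without WT 56 and 2 and 1 without DKO 40. All 12 called genes kept the sign of their log2 fold change in the 6 fits, while the call of Hoxc5 alone was kept in each of them. The share of all genes called moved too: it was 1.48% without DKO 40, 1.57% without WT 32 and 1.23% without WT 56, against 3.73% without DKO 17, 4.61% without DKO 41 and 2.65% without WT 53. Other methods on all 6 libraries called 12 Hox genes with RLE scaling (4.46% of all genes), 11 with no scaling beyond library totals (4.2%) and 12 with a filter of 1 CPM in 3 libraries (6.5%). DESeq2 called 14 Hox genes (9.63% of all genes), limma voom 7 (3.34%), the older edgeR dispersion setting, legacy=TRUE, 5 (2.85%) and edgeR with no filter on low counts 6 (1.38%). Without both WT 32 and DKO 41, 3 were called (1.97% of all genes).

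**Figure D2:**
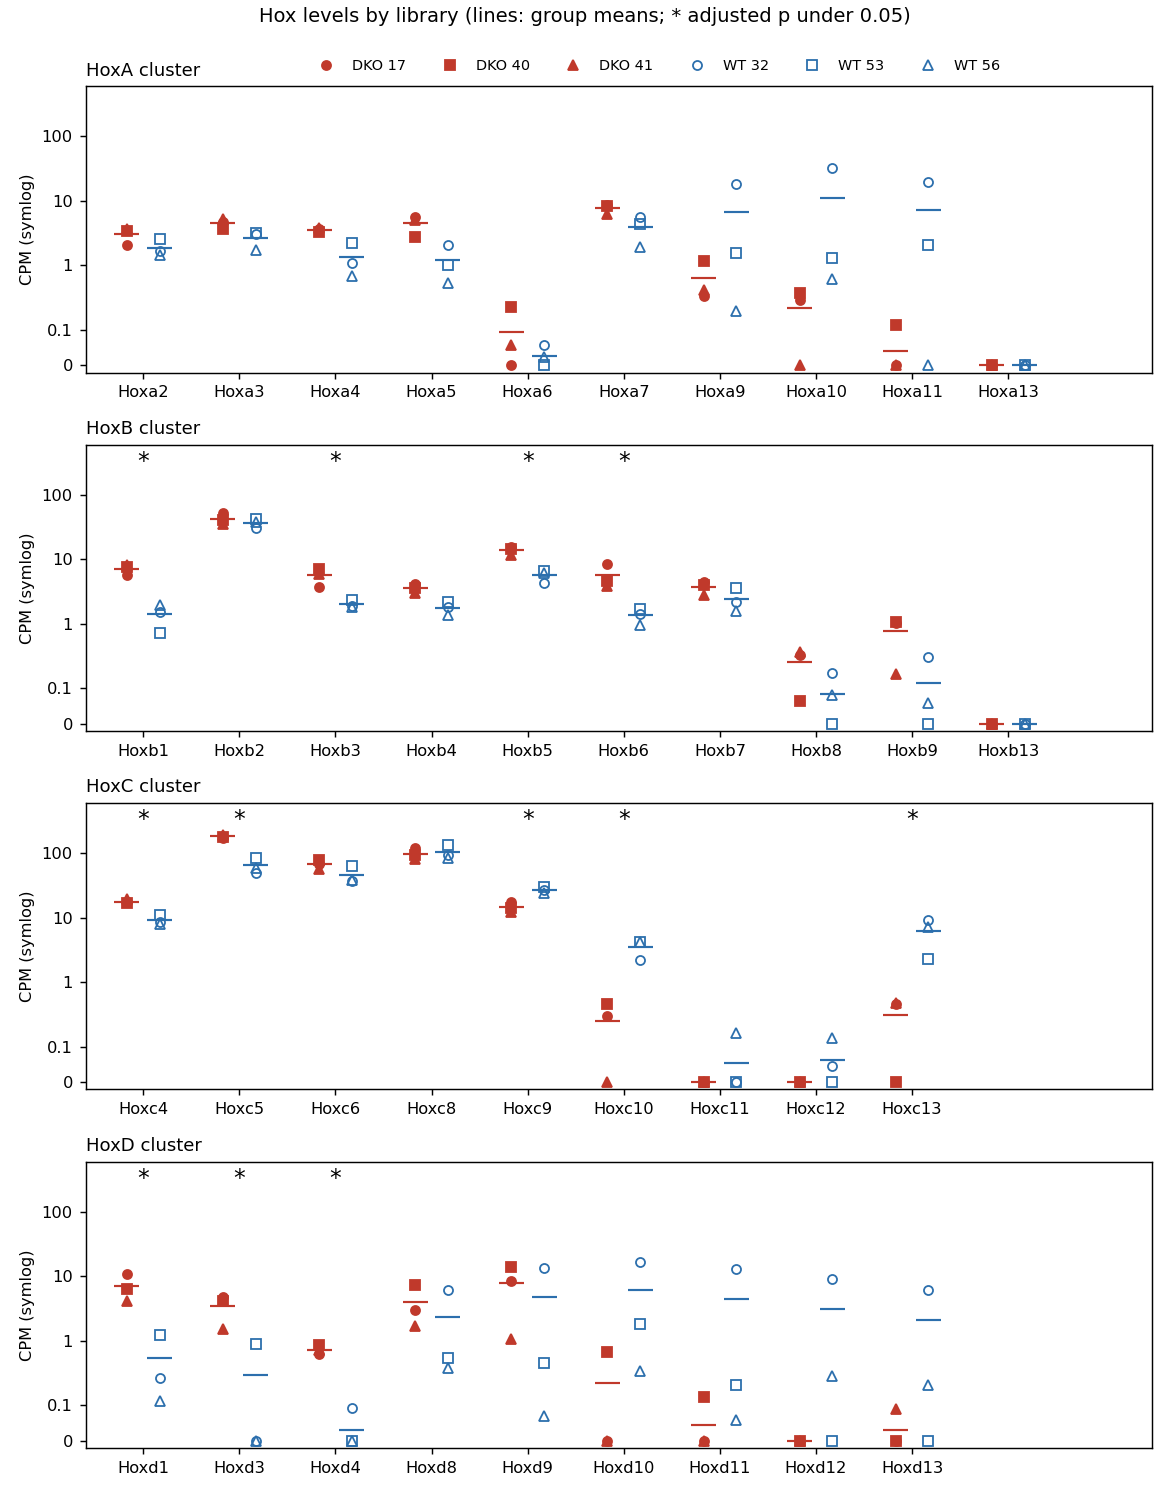
The level of 38 of the Hox genes is plotted in CPM on a symmetric log axis that includes 0, with 1 point per library, DKO (filled) left of WT (open), and a line at each group mean. Stars mark the 12 called genes; the 5′ genes of HoxA and HoxD stand out by the single high point of WT 32, for example 31.9 CPM for Hoxa10.

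HoxC was the most abundant cluster in both groups. Its 9 genes summed to 399, 389 and 364 CPM in DKO 17, DKO 40 and DKO 41, and to 229, 333 and 226 CPM in WT 32, WT 53 and WT 56. Each DKO sum was therefore above each WT sum, and the means differed 1.46-fold. The sums over its 3′ and 5′ genes differed in opposite directions. Hoxc4 to Hoxc8 summed to 369 ± 15.6 CPM in DKO and 226 ± 61.1 CPM in WT (SD, n = 3 each). Hoxc9 to Hoxc13 summed to 15.3 ± 2.97 CPM in DKO and 37.0 ± 1.18 CPM in WT.

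Hoxc5 (ENSMUSG00000022485.3), known for a role in the cervical and upper thoracic skeleton, had 176, 182 and 193 CPM in DKO 17, DKO 40 and DKO 41, against 50.0, 85.8 and 58.8 CPM in WT 32, WT 53 and WT 56. The DKO libraries were tightly grouped and each was more than the highest WT library. The rise was 2.83-fold, with a log2 fold change of 1.51 (SE 0.187, edgeR adjusted p = 0.00357), and with 1 library left out it lay between 1.33 and 1.75 and stayed called. The annotated exons of Hoxc5 reach over Hoxc6, Hoxc8 and Hoxc9 to Hoxc10 (102967443 to 103017429), with which they share 166 bases. Its 3′ neighbour Hoxc4 (ENSMUSG00000075394.4) had 17.4, 16.7 and 19.4 CPM in the DKO libraries, against 8.48, 10.9 and 8.14 CPM in WT. All DKO values were again above all WT values, by a log2 fold change of 0.98 (SE 0.197, edgeR adjusted p = 0.0268). That call remained without WT 53 and was lost without any other single library (adjusted p up to 0.153).

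The 2 genes in the middle of the cluster were not called. Hoxc6, which takes part in patterning the thoracic skeleton, had 68.0, 79.7 and 57.7 CPM in the DKO libraries and 37.0, 63.7 and 38.0 CPM in WT. WT 53 lay within the DKO range, and with a log2 fold change of 0.58 (SE 0.224) the gene was not called (edgeR adjusted p = 0.212), except where WT 53 was left out (0.0462). Hoxc8, known for its part in thoracic vertebrae and in motor neurons of the brachial spinal cord, had 120, 95.5 and 80.7 CPM in DKO and 95.1, 136 and 85.2 CPM in WT. The groups overlapped fully, with a log2 fold change of -0.09 (SE 0.203, edgeR adjusted p = 0.867).

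Further toward the 5′ end the levels were lower in DKO. Hoxc9 (ENSMUSG00000036139.6), a determinant of thoracic motor neurons, had 17.8, 14.2 and 12.3 CPM in DKO 17, DKO 40 and DKO 41, against 26.7, 30.3 and 24.1 CPM in WT 32, WT 53 and WT 56. Every DKO library was below every WT library. Hoxc9 fell by 0.87 on the log2 scale (SE 0.193, edgeR adjusted p = 0.0382), a call that was kept without DKO 17 and lost without any other single library (adjusted p up to 0.156). Hoxc10 (ENSMUSG00000022484.7), a gene of the lumbar spinal cord and hindlimb, had 0.300, 0.457 and 0 CPM in DKO, against 2.24, 4.22 and 4.25 CPM in WT. DKO 41 held no read, and the others were several-fold below the lowest WT library. The mean was 14.1-fold lower in DKO (log2 fold change -3.86, SE 0.633, edgeR adjusted p = 0.00977). Its log2 fold change was -4.59 without DKO 40 and -3.23 without DKO 41, and the call was lost without WT 56 (adjusted p = 0.0528).

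Hoxc13 (ENSMUSG00000001655.6), which is required for hair and nails, is at the 5′ end of the cluster (102921103 to 102928814). It had 38, 0 and 42 counts in DKO 17, DKO 40 and DKO 41, and 791, 145 and 632 counts in WT 32, WT 53 and WT 56. These are 0.456, 0 and 0.471 CPM in DKO and 9.16, 2.29 and 7.23 CPM in WT. The WT libraries thus varied among themselves, with WT 53 the lowest, but lay clear of the DKO libraries. Hoxc13 was 20.2-fold lower in DKO, with a log2 fold change of -4.33 (SE 0.739, edgeR adjusted p = 0.0128). Leaving out DKO 40, WT 32 or WT 56 ended the call (adjusted p = 0.0722, 0.0581 and 0.0601). Between these genes, Hoxc11 and Hoxc12 had 0 counts in DKO and at most 14 counts in any WT library, too few to be tested.

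To compare levels between genes, CPM was divided by the length of the merged exons in kilobases. In DKO, Hoxc5 stood first among the 39 genes with 59.4 ± 2.87 CPM per kb, followed by Hoxc8 (34.8 ± 6.94) and Hoxc6 (28.4 ± 4.57 CPM per kb). In WT, Hoxc8 stood first with 37.2 ± 9.47 CPM per kb, followed by Hoxc5 (20.997 ± 6.03) and Hoxc6 (19.2 ± 6.28 CPM per kb). The ranges of the libraries did not overlap between Hoxc5 and Hoxc8 in either group, but did between Hoxc8 and Hoxc6 in DKO and between Hoxc5 and Hoxc6 in WT. As a share of the HoxC sum per length, Hoxc5 made up 43.9 ± 4.55% in DKO and 21.6 ± 2.08% in WT. The share of Hoxc8 was 25.5 ± 3.87% in DKO and 38.4 ± 2.01% in WT, and that of Hoxc9 4.44 ± 0.639% in DKO and 11.7 ± 1.41% in WT. The share of Hoxc6 was 20.9 ± 2.71% in DKO and 19.6 ± 1.83% in WT.

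**Figure D3:**
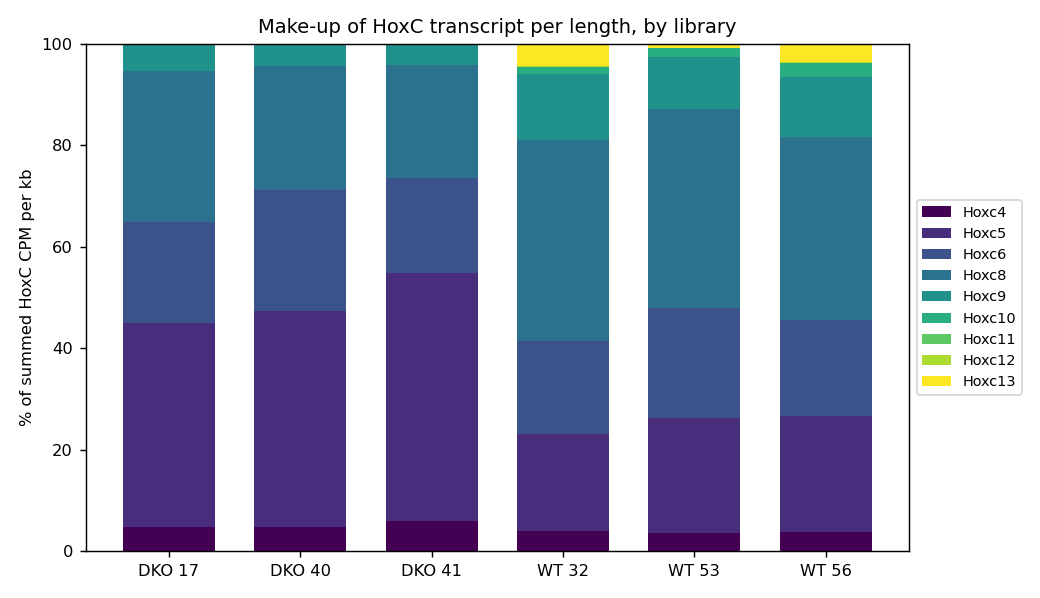
Stacked bars give the make-up of the HoxC sum in each library, as percent of the summed CPM per kb of exon. Hoxc5 holds 40.1% to 48.9% of the DKO bars and 19.2% to 22.8% of the WT bars, while Hoxc9, Hoxc10 and Hoxc13 are visible mainly in the WT bars.

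In HoxB, Hoxb1, Hoxb3, Hoxb5 and Hoxb6 rose in DKO. The summed level was 95.4, 82.6 and 72.1 CPM in DKO 17, DKO 40 and DKO 41, against 44.7, 59.2 and 51.5 CPM in WT 32, WT 53 and WT 56, so that the groups did not overlap. All 9 tested HoxB genes had a positive log2 fold change. Hoxb1 (ENSMUSG00000018973.2), the gene of the fourth rhombomere of the hindbrain, had 5.81, 7.50 and 8.27 CPM in DKO, against 1.49, 0.711 and 1.98 CPM in WT. It rose 5.16-fold, with a log2 fold change of 2.31 (SE 0.350, edgeR adjusted p = 0.00859), and lost its call without WT 32 (adjusted p = 0.0563).

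Hoxb3, which patterns the hindbrain and pharyngeal arches, had 3.72, 7.19 and 5.93 CPM in DKO and 1.89, 2.37 and 1.79 CPM in WT. Hoxb5, known for its effect on the position of the shoulder girdle, had 15.6, 14.5 and 11.7 CPM in DKO, against 4.34, 6.55 and 6.23 CPM in WT. Hoxb6, a gene with a role in the upper thoracic skeleton, had 8.39, 4.56 and 3.90 CPM in DKO and 1.42, 1.67 and 0.939 CPM in WT. In these 3 genes no DKO library reached down to a WT library. Their log2 fold changes were 1.49 for Hoxb3 (SE 0.347, edgeR adjusted p = 0.0458), 1.30 for Hoxb5 (SE 0.240, edgeR adjusted p = 0.0196) and 2.09 for Hoxb6 (SE 0.435, edgeR adjusted p = 0.0307). The call of Hoxb3 was kept without DKO 17 alone (adjusted p up to 0.209 otherwise). Hoxb5 was lost without DKO 40, WT 32 or WT 56 (up to 0.112), and Hoxb6 without these or WT 53 (up to 0.172). Of the 4251 exon bases of Hoxb3, 2250 overlap the antisense gene Hoxb3os, which this unstranded chemistry cannot separate. Hoxb3os lay lower in DKO, so the rise of Hoxb3 is uncertain, and the split of reads between these genes was not tested.

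Hoxb2, another hindbrain gene, was the most abundant of the cluster and overlapped between the groups, with 51.9, 40.2 and 36.0 CPM in DKO against 31.1, 42.2 and 37.5 CPM in WT (log2 fold change 0.22, edgeR adjusted p = 0.613). Hoxb4, known from blood stem cells and the neck vertebrae, had 4.11, 3.53 and 3.05 CPM in DKO and 1.83, 2.15 and 1.36 CPM in WT. The groups were separate, but the log2 fold change of 1.02 (SE 0.318) was not called (edgeR adjusted p = 0.118). Hoxb7 had 4.51, 4.03 and 2.76 CPM in DKO and 2.17, 3.60 and 1.57 CPM in WT, and overlapped between the groups. Hoxb7 (log2 fold change 0.67), Hoxb8 (1.48) and Hoxb9 (2.48) were not called, and the last 2 were at most 1.07 CPM in any library. HoxB ends 645138 bases from the start of Sp6 on the same chromosome. Any sequence difference carried along with the Sp6 allele cannot be told apart there from the genotype itself.

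The 3′ genes of HoxD had the largest log2 fold changes of the 9 Hox genes called higher, and were low in WT. Hoxd1 (ENSMUSG00000042448.5, chromosome 2, 74762980 to 74765142), known from sensory neurons that detect pain, had 10.7, 6.22 and 4.14 CPM in DKO 17, DKO 40 and DKO 41, against 0.266, 1.23 and 0.114 CPM in WT 32, WT 53 and WT 56. The lowest DKO library was above the highest WT library, WT 53. The rise was 13.05-fold (log2 fold change 3.89, SE 0.657, edgeR adjusted p = 0.0130). Without WT 53 the log2 fold change was 5.19, and the gene was no longer called once DKO 40, WT 32 or WT 56 was left out (adjusted p = 0.0509, 0.0901 and 0.0864).

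Hoxd3, which shapes the first neck vertebrae, had 4.75, 4.14 and 1.49 CPM in DKO and was counted in WT 53 alone among the WT libraries, at 0.884 CPM. Relative to WT it rose by 3.84 on the log2 scale (SE 0.918, edgeR adjusted p = 0.0455). The mean over all libraries was 11.7-fold higher in DKO. Without WT 53 the WT group was at 0 counts and Hoxd3 was at least 200-fold higher in DKO, taking 3 counts over the 2 libraries left as the floor. Gm28230 shares 2225 exon bases with Hoxd3 on the same strand. Gm28230 had 55, 0 and 49 counts in WT 32, WT 53 and WT 56, and 95, 0 and 251 in the DKO libraries. In WT it was thus counted where Hoxd3 was not, and the 200-fold limit is uncertain. Hoxd4, a gene of the hindbrain and neck vertebrae, had 0.612, 0.863 and 0.706 CPM in DKO and was counted in WT 32 alone among the WT libraries, at 8 counts or 0.0926 CPM. It was 23.5-fold higher in DKO (log2 fold change 4.36, SE 0.923, edgeR adjusted p = 0.0286). Without WT 32 the WT group was at 0 counts by construction, and the floor of 3 counts gave at least 36.5-fold. Gm28230 also shares 1154 exon bases with Hoxd4 on the same strand. It was counted in WT 56, where Hoxd4 was not, so the 36.5-fold limit is uncertain as well. Hoxd4 reached the minimum of the filter in 3 libraries, those of DKO, and so entered the test only through the group where it was high. Leaving out DKO 17, DKO 40, WT 32 or WT 56 ended the call of Hoxd3 (adjusted p up to 0.209), and leaving out any library but DKO 17 that of Hoxd4 (up to 0.151). The log2 fold changes of Hoxd3 were 3.16 and 3.17 without WT 32 and WT 56, and that of Hoxd4 was 3.71 without WT 56. DESeq2 did not call Hoxd3 (adjusted p = 0.498). Of the exon bases of Hoxd3 and Hoxd4, 2634 and 1542 are shared with other genes, 388 of them between these 2, so their separate counts are uncertain.

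The upstream sequence is shown for 1 gene of each cluster with called rises: Hoxd1, whose start lies 84 bases from that of the divergent noncoding gene Haglr, Hoxb1, and Hoxc4. Sequences of 250 bases before the RefSeq gene start were taken on GRCm38.p6, where 22 of the 39 Hox genes and 5 of the 12 called ones had an entry. The RefSeq start of Hoxc4 is not the start annotated for the counts, and its window lies inside the annotated gene (103018934 to 103036852). Capitals mark 2 motifs searched on both strands: the GC box GGGCGG, to which SP factors are known to bind, and TGATNNAT, the paired site of Pbx and Hox proteins.
Hoxd1 (plus strand, chr2:74762730-74762979): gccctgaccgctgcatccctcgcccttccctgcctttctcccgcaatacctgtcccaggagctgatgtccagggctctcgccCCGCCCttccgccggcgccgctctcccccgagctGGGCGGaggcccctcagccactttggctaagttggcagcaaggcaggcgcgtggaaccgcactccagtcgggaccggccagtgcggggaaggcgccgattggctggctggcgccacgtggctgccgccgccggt
Hoxb1 (plus strand, chr11:96365508-96365757): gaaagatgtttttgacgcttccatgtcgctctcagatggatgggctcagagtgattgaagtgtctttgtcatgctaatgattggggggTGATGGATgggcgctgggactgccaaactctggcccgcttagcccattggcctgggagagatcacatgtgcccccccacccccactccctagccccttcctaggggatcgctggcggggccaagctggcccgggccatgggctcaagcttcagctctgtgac
Hoxc4 (plus strand, chr15:103034145-103034394): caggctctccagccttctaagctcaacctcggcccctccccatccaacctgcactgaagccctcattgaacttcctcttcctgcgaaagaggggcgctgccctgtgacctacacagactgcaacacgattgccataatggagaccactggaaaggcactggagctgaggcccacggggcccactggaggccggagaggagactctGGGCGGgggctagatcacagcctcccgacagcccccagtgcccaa

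The Hoxd1 window held a GC box on each strand, ending 129 and 163 bases before the start. The Hoxc4 window held 1, ending 40 bases before the RefSeq start, inside the annotated gene. In the Hoxb1 window the Pbx and Hox site TGATGGAT ended 155 bases before the start. A GC box was present in 32.7% of 32851 promoter windows of this length, and in 10 of the 24 windows of the 22 Hox genes (41.7%). The Pbx and Hox letters were present in 7.68% of all windows and in 4 of the 24 Hox windows. The windows of Hoxd3 and Hoxd4 held neither motif, and that of Hoxd4 (74721728 to 74721977) also lies inside the annotated gene (74711929 to 74729160). These are matches of letters, and binding was not measured here.

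In HoxA no gene was called by edgeR. At an unadjusted p under 0.05, 4 of the 9 tested genes were higher and 2 lower, where 8.66% of all genes tested were higher and 9.36% lower at that threshold. DESeq2 called 2 higher, Hoxa4 and Hoxa5, and 0 lower, and voom called 0. All 6 tested HoxA genes with paralog numbers 1 to 8 had a positive log2 fold change, and the summed level over these numbers was 29.8, 28.9 and 31.9 CPM in DKO 17, DKO 40 and DKO 41. In WT 32, WT 53 and WT 56 it was 19.9, 17.6 and 10.96 CPM, so the groups did not overlap. Hoxa5, needed for lung and trachea, had 5.59, 2.78 and 5.01 CPM in DKO, against 2.06, 1.03 and 0.526 CPM in WT. Hoxa4 had 3.70, 3.35 and 3.73 CPM in DKO and 1.09, 2.23 and 0.687 CPM in WT. For both, every DKO library was above every WT library, with log2 fold changes of 1.89 for Hoxa5 (SE 0.474, edgeR adjusted p = 0.0620) and 1.52 for Hoxa4 (SE 0.397, edgeR adjusted p = 0.0699, and 0.0395 without WT 53).

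Hoxa3, required for the thymus and parathyroid, and Hoxa7 were also separate between the groups. Hoxa3 had 4.77, 3.63 and 5.29 CPM in DKO and 3.08, 3.14 and 1.74 CPM in WT (log2 fold change 0.81, edgeR adjusted p = 0.222). Hoxa7 had 8.68, 8.22 and 6.25 CPM in DKO and 5.55, 4.37 and 1.91 CPM in WT (log2 fold change 0.98, edgeR adjusted p = 0.183). Hoxa2, which patterns the second pharyngeal arch, had 2.06, 3.45 and 3.64 CPM in DKO and 1.68, 2.54 and 1.42 CPM in WT. It overlapped between the groups (log2 fold change 0.74).

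The 5′ genes of HoxA and HoxD were present mainly in 1 WT library. Hoxa10 had 0.288, 0.366 and 0 CPM in DKO 17, DKO 40 and DKO 41, and 31.9, 1.31 and 0.607 CPM in WT 32, WT 53 and WT 56. Hoxa11, which with Hoxd11 is needed for the forearm, had 0, 0.118 and 0 CPM in DKO and 19.5, 2.08 and 0 CPM in WT. Hoxa9 had 0.336, 1.18 and 0.415 CPM in DKO and 18.2, 1.55 and 0.195 CPM in WT. WT 32 thus stood far above the other libraries for all 3 genes. The log2 fold changes were -3.48 for Hoxa9, -5.80 for Hoxa10 and -7.63 for Hoxa11, with SEs of 1.57, 2.04 and 2.48, and none was called (edgeR adjusted p = 0.309, 0.181 and 0.137). Without WT 32 they were -0.33, -2.14 and -4.59, and Hoxa11 was called without WT 56 (adjusted p = 0.0384).

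The same library carried the 5′ genes of HoxD. Hoxd10 had 0, 0.653 and 0 CPM in DKO and 16.3, 1.80 and 0.332 CPM in WT 32, WT 53 and WT 56. Hoxd11 had 0, 0.131 and 0 CPM in DKO and 12.9, 0.205 and 0.0572 CPM in WT. Neither was called, with log2 fold changes of -4.98 and -6.80 (edgeR adjusted p = 0.162 and 0.173), and of -2.27 and -1.56 without WT 32. Hoxd12 had 0 counts in the 3 DKO libraries and 786, 0 and 25 counts in WT, and Hoxd13, the digit gene at the 5′ end, had 0, 0 and 8 counts in DKO and 519, 0 and 18 in WT. Both were removed by the filter, whose minimum they reached in 2 libraries where 3 are needed.

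Of the 10 limb mesenchyme markers, 6 were highest in WT 32, 3 in DKO 40 and 1 in WT 56. Prrx1 was at 3.51, 23.3 and 12.8 CPM in DKO 17, DKO 40 and DKO 41, and at 29.0, 1.61 and 0.412 CPM in WT 32, WT 53 and WT 56. Shox2 was at 0.384, 0.706 and 0.202 CPM in DKO and 15.9, 0.853 and 0.423 CPM in WT, and Tbx5 at 1.01, 4.61 and 3.28 CPM in DKO and 12.99, 2.81 and 0.0572 CPM in WT. These 3 were highest in WT 32, as were Osr1, Lhx9 and Shh, the last of which was at 0 in every other library. Other members of the list did not follow that library. Prrx2 was at 83.0, 174 and 65.4 CPM in DKO and 49.4, 37.3 and 18.5 CPM in WT, and Twist1 at 20.4, 46.7 and 21.4 CPM in DKO and 14.8, 3.06 and 1.47 CPM in WT. For both, every DKO library lay above every WT library, without a call (log2 fold changes 1.62 and 2.14, edgeR adjusted p = 0.0906 and 0.135). Pdgfra was at 2.57, 10.08 and 10.3 CPM in DKO and 67.8, 37.4 and 94.5 CPM in WT, and fell (log2 fold change -3.13, edgeR adjusted p = 0.00696). Hand2 was at most 2.30 CPM, in DKO 40. The 9 genes of HoxA and HoxD with paralog numbers 9 to 13 summed to 8.99, 16.5 and 1.57 CPM in DKO and to 128, 7.39 and 1.75 CPM in WT. The part of mesenchymal RNA in these values was not tested.

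**Figure D4:**
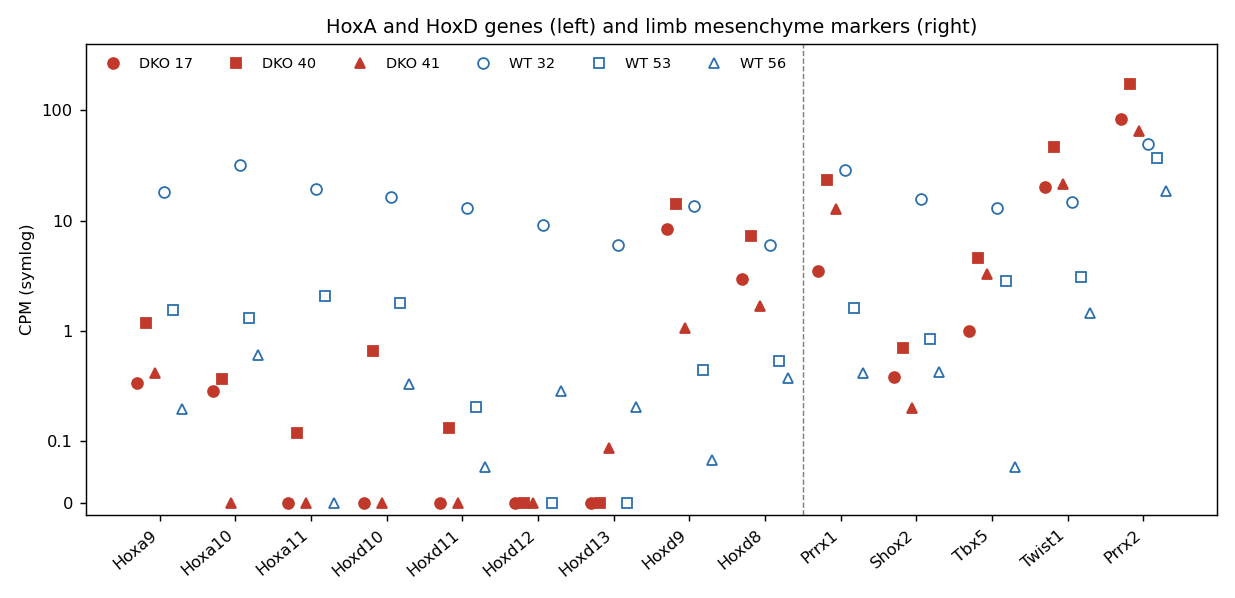
The level of 9 HoxA and HoxD genes (left of the dashed line) and of 5 limb mesenchyme markers (right) is shown in CPM on a symmetric log axis that includes 0, with 1 point per library, DKO filled and WT open. WT 32 is the highest library for Hoxa9 to Hoxa11 and Hoxd10 to Hoxd13, between 6.01 and 31.9 CPM, and for Prrx1, Shox2 and Tbx5, but not for Twist1 and Prrx2, which are highest in DKO 40.

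Hoxd9 and Hoxd8 differed from their 5′ neighbours in being present in all DKO libraries. Hoxd9 had 8.37, 14.1 and 1.06 CPM in DKO 17, DKO 40 and DKO 41, against 13.6, 0.442 and 0.0687 CPM in WT 32, WT 53 and WT 56. Hoxd8 had 2.96, 7.32 and 1.69 CPM in DKO and 5.998, 0.537 and 0.378 CPM in WT. In both genes WT 32 lay within the DKO range and the other 2 WT libraries below it. Their log2 fold changes were 0.62 and 0.67 (edgeR adjusted p = 0.854 and 0.750). Without WT 32 these were 5.05 and 3.10 and still not called (adjusted p = 0.165 and 0.185). DKO 41 was the library with the highest sum of red blood cell genes. With DKO 41 also left out, the log2 fold changes were 5.58 for Hoxd9 and 3.47 for Hoxd8. For both genes WT 32 was the highest WT library and DKO 41 the lowest DKO library. Leaving out both widens the difference by construction, so no call is read from that fit. Leaving out WT 32 likewise moved the log2 ratio of the summed levels, DKO over WT: it was 0.86 for HoxA, where all libraries gave -0.41, and 2.83 for HoxD, where all libraries gave -0.02.

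The remaining members were at or near 0. Hoxa13 and Hoxb13 had 0 counts in all 6 libraries, which allows up to 0.012 CPM in DKO and 0.0127 CPM in WT, taking 3 counts over a group as the limit. Hoxa6 had at most 17 counts in any library. With Hoxc11, Hoxc12, Hoxd12 and Hoxd13 these are the 7 members that were not tested.

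Other genes within and beside the clusters were read from the same test, to see whether the changes reached past the Hox genes. Of 46 other genes annotated inside the clusters, 34 had a count and 15 were tested. Of the 15, 2 were called higher and 0 lower (1.7% and 2.81% of all genes tested). At an unadjusted p under 0.05 the numbers were 4 and 2 (8.66% and 9.36% of all genes tested). Haglr, the noncoding gene that starts beside Hoxd1, had 4.07, 3.18 and 1.49 CPM in DKO and 0.336, 0.505 and 0.137 CPM in WT (log2 fold change 3.22, SE 0.619, edgeR adjusted p = 0.0208). Hoxb5os, which is antisense to Hoxb5, had 3.12, 5.63 and 2.07 CPM in DKO and 0.648, 0.805 and 0.744 CPM in WT (log2 fold change 2.28, SE 0.518, edgeR adjusted p = 0.0424). Both rose, as did the Hox gene next to each. Haglr lost its call when DKO 40 or one of the WT libraries was left out (adjusted p up to 0.142), and Hoxb5os without any library but DKO 41 (up to 0.183). Hoxb3os, antisense to Hoxb3 and Hoxb2, had 5.99, 2.06 and 1.56 CPM in DKO and 6.68, 7.66 and 6.17 CPM in WT. It lay lower in DKO, the opposite side from Hoxb3, and was not called (log2 fold change -1.08, edgeR adjusted p = 0.226). Hoxb3 had 310, 550 and 529 counts in DKO and 163, 150 and 156 in WT. Hoxb3os had 499, 158 and 139 counts in DKO and 577, 485 and 539 in WT. As these 2 genes share 2250 exon bases and the reads are unstranded, their opposite shifts are not separate results. How reads were split between them was not tested. The antisense gene Hoxa11os was at 0.264, 0.288 and 0 CPM in DKO and at 11.7, 0.253 and 0.183 CPM in WT, with WT 32 high as for Hoxa11. As Hoxa11os and Hoxa11 share 800 exon bases, their values are not separate results either.

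Of the 3 nearest protein-coding genes on each side of the 4 clusters, 24 in all, 21 were tested and 0 were called by edgeR. At an unadjusted p under 0.05, 5 were higher and 2 lower (8.66% and 9.36% of all genes tested), DESeq2 called 4 higher and 1 lower, and voom called 0. Skap1, between HoxB and Sp6, came nearest to the threshold, with 0.576, 2.33 and 1.28 CPM in DKO and 0.278, 0.111 and 0.195 CPM in WT (log2 fold change 2.75, edgeR adjusted p = 0.0554). Mtx2, on the Hoxd1 side of HoxD, had 197, 206 and 168 CPM in DKO and 127, 149 and 112 CPM in WT. It was not called (log2 fold change 0.56, edgeR adjusted p = 0.0571). Beside HoxC, where 5 of 7 tested Hox genes were called, the log2 fold changes of the 6 neighbours lay between -0.16 and 0.30. The range was wider beside the other clusters: -1.84 to 0.54 for HoxA, -0.11 to 2.75 for HoxB and -0.28 to 0.56 for HoxD.

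Hox proteins bind DNA together with homeodomain partners of the Meis, Pbx and Pknox families. Of the 9 partner genes 4 rose and 0 fell, with a median log2 fold change of 0.63; at an unadjusted p under 0.05 the numbers were 5 and 0 (8.66% and 9.36% of all genes tested), and DESeq2 gave 4 and 0. Meis2 had 166, 162 and 170 CPM in DKO and 83.3, 79.8 and 78.4 CPM in WT (log2 fold change 1.05, SE 0.103, edgeR adjusted p = 0.00124). Pbx2 was 0.70 higher on the log2 scale (edgeR adjusted p = 0.0203) and Meis1 0.63 (edgeR adjusted p = 0.0286). Meis2 kept its call whichever library was left out. Meis1 and Pbx2 lost it when DKO 40 or one of the WT libraries was left out (adjusted p at most 0.152).

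Retinoic acid and Cdx factors are known to switch on Hox genes from the 3′ end of the clusters. Of 12 tested genes on that list, 3 rose (Rara, Rarb and Aldh1a2) and 2 fell (Cyp26a1 and Cyp26b1, which degrade retinoic acid). Of all genes tested, 1.7% were called higher and 2.81% lower. At an unadjusted p under 0.05 the list had 6 higher and 4 lower (8.66% and 9.36% of all genes tested). The receptor gene Rarb had 4.06, 10.02 and 9.67 CPM in DKO and 2.34, 1.55 and 1.36 CPM in WT, and Rara rose by 0.60 on the log2 scale (edgeR adjusted p = 0.0280 and 0.0230). Aldh1a2, which makes retinoic acid, had 0.876, 0.431 and 0.616 CPM in DKO and 0 counts in WT (edgeR adjusted p = 0.0325). With 0 counts in WT, Aldh1a2 passed the filter through its DKO libraries alone. Cyp26a1 had 4.75, 0.314 and 3.65 CPM in DKO and 45.7, 41.1 and 51.1 CPM in WT (edgeR adjusted p = 0.00165), and Cyp26b1 had 15.8, 1.25 and 4.70 CPM in DKO and 34.7, 42.7 and 37.8 CPM in WT (edgeR adjusted p = 0.0406). Of these 5 calls that of Cyp26a1 alone was kept in each fit with 1 library left out, and the log2 fold change of Cyp26b1 was -3.64 without DKO 17, against -2.39 with it. Cdx1 had 126, 188 and 24.4 CPM in DKO and 11.7, 24.8 and 23.4 CPM in WT. DKO 41 lay at the WT level, and Cdx1 was not called (log2 fold change 2.50, edgeR adjusted p = 0.133).

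Polycomb complexes keep Hox clusters silent and Trithorax complexes keep them active. Of 16 Polycomb genes edgeR called 0 higher and 1 lower in DKO (1.7% and 2.81% of all genes tested). That call was lost without any single library but DKO 41. Polycomb genes at an unadjusted p under 0.05 numbered 2 higher and 3 lower (8.66% and 9.36% of all genes tested). DESeq2 called 1 higher and 2 lower, and voom 1 higher and 0 lower. Their median log2 fold change by edgeR was 0.003. Of 9 Trithorax genes edgeR called 0, with 1 higher and 1 lower at an unadjusted p under 0.05 (8.66% and 9.36% of all genes tested), and DESeq2 and voom called 0 as well. Their median log2 fold change was -0.02.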

How the data were processed

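The authors deposited whole-number read counts per gene for 55401 genes in 6 columns. From the letters in their names, 3 columns were assigned to DKO and 3 to WT at E9.75. Column numbers match no replicate number of the labels. Per the labels' protocols, ectoderm was peeled after 20 min in 0.25% trypsin on ice, and libraries used SMART-Seq v4 and Nextera XT, which mark neither strand nor molecule. Per the submitters' processing notes, the tools were HISAT2, StringTie, Cufflinks and DESeq2, with fastp and FastQC, and the builds GRCm38 and mm10. The step that made the counts is not stated there. Counts of 1 outnumbered counts of 2 in each library (1490 genes against 617 in DKO 17); some low counts could be rounded estimates.

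Positions and exon lengths came from GENCODE M21, matched by identifier for 55141 of 55401 rows (99.5%). Counts were tested with edgeR 4.0.16 in R 4.3.3 (filterByExpr, TMM, glmQLFit with robust=TRUE and legacy=FALSE, quasi-likelihood F test) over 19126 genes, and the script was tested on simulated data. DESeq2 1.42.0, limma 3.58.1 (voom), other scalings, filters and leaving out libraries were alternatives. SEs were obtained from log2 fold changes and F, whose square root is their ratio. Groups at 0 counts were set to 3 counts in all, a limit that covers counting error only. Every pair of libraries differed by more than sampling noise (chi-square per degree of freedom of 50.2 or more), so 6 samples were counted.

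The Hox genes, the other gene lists and the tests were chosen with earlier results of these data known. Values by library are given for Hox genes that were called or averaged at least 1 CPM in either group, and genes of other lists are named where called; a few items are not reported here; Hoxb3os, Hoxa11os, Skap1, Cdx1, Prrx1, Prrx2, Shox2, Tbx5, Twist1, Osr1, Lhx9, Hand2 and Shh were chosen after their values were seen.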

Additional observations from a re-analysis of the deposited data

How the results depend on the processing

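No paired analysis was possible because the columns carry no replicate number of the labels, so the planned replicate block was not run. The cause of calls lost under an alternative was not tested. For a group at 0 counts, depth sets a limit of 3 counts (0.012 CPM in DKO and 0.0127 CPM in WT). Depth also bears on genes with low counts, such as Hoxa6, Hoxc11 and Hoxc12, which the filter kept from the test. Against 9 Hox genes called higher and 3 lower, legacy=TRUE gave 5 and 0, no filter on low counts gave 4 higher, voom gave 1 lower, and leaving out both WT 32 and DKO 41 gave 2 and 1. Leaving out 1 library gave 1 to 8 higher and 1 to 3 lower. RLE scaling, no scaling beyond totals, DESeq2 and a filter of 1 CPM in 3 libraries moved neither count by over 1.5 times, and the sign of each of the 12 called genes was the same in every alternative in which it was tested. Signs reversed for genes that were not called: Hoxc8 without DKO 41 and WT 53 (0.03 and 0.13), and Hoxd8 and Hoxd9 without DKO 40 (-0.073 and -0.10). With 1 library left out, their log2 fold changes lay between -0.25 and 0.13 for Hoxc8, -0.073 and 3.10 for Hoxd8, and -0.10 and 5.05 for Hoxd9. The log2 ratio of the HoxA sum was 0.83 and of the HoxD sum 3.22 without both WT 32 and DKO 41; with 1 library left out the ranges were -0.85 to 0.86 and -0.57 to 2.83.

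Of 2 other genes inside the clusters called higher, 0 were called by voom or with no filter, 1 without both libraries and 0 to 2 with 1 library left out, where 0 or 1 was lower. Beside the clusters 1 was higher with no scaling and with the 1 CPM filter, 4 higher and 1 lower by DESeq2, and 0 or 1 higher with 1 library left out. The partner genes called higher numbered 1 without both libraries and 1 to 4 with 1 left out, against 4. The retinoic acid and Cdx list, with 3 higher and 2 lower, gave 5 and 1 by DESeq2, 1 and 1 with no filter, 1 and 1 without both libraries, 1 lower with legacy=TRUE and with the 1 CPM filter, and 0 to 2 higher and 1 to 2 lower with 1 library left out. For Polycomb genes, with 0 higher and 1 lower, no scaling gave 1 and 0, voom 1 and 0, DESeq2 1 and 2, and legacy=TRUE, no filter and both libraries out 0 lower; with 1 library left out 0 or 1 was lower. With the longest transcript as length, Hoxc5 was at 62.8 CPM per kb in DKO, Hoxc8 at 44.4 in DKO and 47.4 in WT, and Hoxc6 at 43.3 in DKO and 29.2 in WT.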
